A study of Mus musculus with 4 samples.

Results

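The genes described here are 32 genes of glycolysis and of the transcriptional response to low oxygen in mouse osteoblastic cells. The list names 20 genes of glucose uptake, glycolysis and lactate export and 12 other genes known as targets of hypoxia-inducible factor (HIF), and no value of these arrays enters its rule. It was, however, chosen with earlier results of these data known. Members were found by matching the RefSeq accessions of the array's probes to gene symbols, which named 22911 genes. All 32 members had a probe, with 58 probes in all, and the brightest probe of each was well above background on every array by the scanner software's own mark. No member was therefore lost to a filter on dim probes.

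Gene expression was measured by 1-colour microarray in MC3T3-E1 cells, an established pre-osteoblastic line from mouse calvaria. There were 4 groups with 1 array each, namely Control and the inhibitors Miglustat (50 µM), D-PDMP (10 µM) and D-PPMP (1.0 µM). The 3 compounds inhibit glucosylceramide synthase, the enzyme that adds glucose to ceramide, and the study asked which molecules this enzyme regulates in osteoblasts. After 4 days with an inhibitor, cells were replated and cultured for 24 h before harvest. No genetic change is named for any group, the labels do not say what the Control cells received, and no oxygen level is given. The 3 inhibitors were used at different doses, so their values are set side by side without comparing their strength. With 1 array a group no difference has a replicate check, no test was possible, and every ratio below compares 2 arrays.

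A level is log2 of the processed spot signal minus that array's 75th percentile, so that 0 is the signal of the probe at that percentile and 1 unit is a 2-fold difference. Levels are set side by side only for the same probe. The share of probes well above background was 57.4% on the Control array and 60.2% to 62.4% on the others, and no spot was saturated. Agilent's software error of a log2 ratio, which covers measurement within arrays and not differences between cultures, was 0.204 for most members and 0.333 at most. Measured over probes printed as 10 spots, the median SD of log2 signal within an array was 0.0295 to 0.0371 for bright probes. For dim ones it was 0.438 to 0.623. Of 12 osteoblast markers, 8 were well above background on every array, among them Runx2, Col1a1 and Sparc, while Alpl, Ibsp and Dmp1 were not on any. Of the lists for other cells, 2 of 5 chondrocyte, 2 of 5 adipocyte, 3 of 5 leukocyte, 1 of 4 endothelial and 0 of 4 muscle markers were well above background on all 4 arrays; Ptprc, which defines leukocytes, was on none. These are bulk RNA values, in which fewer cells of a type and less RNA per cell cannot be told apart.

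Glycolysis splits glucose into pyruvate and yields ATP without oxygen, and lactate dehydrogenase turns the pyruvate into lactate, which leaves the cell through monocarboxylate transporters. Osteoblasts are known for strong aerobic glycolysis. When oxygen is low, prolyl hydroxylases no longer mark HIF-1α for destruction by the von Hippel-Lindau protein, and HIF-1α with its partner Arnt switches on most glycolytic genes together with genes for acid balance, vessel growth, mitochondrial turnover and collagen modification.

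HIF binds a short core, ACGTG or GCGTG, within the hypoxia response element. The promoters of 6 members are shown because the text below turns on their values or because they show how the core is placed: the glucose transporter Slc2a1 and the kinase Hk2, the textbook HIF targets Pgk1 and Ldha, and Car9 and P4ha2 of the non-glycolytic members. Each sequence is the 250 bases before a RefSeq gene start (build GRCm38.p6), 5′ to 3′ on the gene's strand, with every ACGTG or its reverse complement CACGT in capitals. They lie at chr4:119108495-119108744 (Slc2a1, plus strand), chr6:82774455-82774704 (Hk2, minus strand), chrX:106186850-106187099 (Pgk1, plus strand), chr7:46845554-46845803 (Ldha, plus strand), chr4:43506776-43507025 (Car9, plus strand) and chr11:54100674-54100923 (P4ha2, plus strand).
Slc2a1: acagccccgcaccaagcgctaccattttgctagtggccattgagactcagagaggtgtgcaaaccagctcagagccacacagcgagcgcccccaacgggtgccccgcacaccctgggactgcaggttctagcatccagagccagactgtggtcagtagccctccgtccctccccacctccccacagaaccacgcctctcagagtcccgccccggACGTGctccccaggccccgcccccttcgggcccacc
Hk2: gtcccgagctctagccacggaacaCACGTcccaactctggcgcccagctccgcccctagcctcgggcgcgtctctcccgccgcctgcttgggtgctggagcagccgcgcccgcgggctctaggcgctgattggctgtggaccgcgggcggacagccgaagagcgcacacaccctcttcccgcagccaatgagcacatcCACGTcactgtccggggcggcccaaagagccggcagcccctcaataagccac
Pgk1: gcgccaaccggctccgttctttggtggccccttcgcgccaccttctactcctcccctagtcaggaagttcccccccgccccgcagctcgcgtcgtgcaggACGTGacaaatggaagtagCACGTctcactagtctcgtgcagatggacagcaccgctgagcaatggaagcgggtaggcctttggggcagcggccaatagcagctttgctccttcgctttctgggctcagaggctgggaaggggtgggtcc
Ldha: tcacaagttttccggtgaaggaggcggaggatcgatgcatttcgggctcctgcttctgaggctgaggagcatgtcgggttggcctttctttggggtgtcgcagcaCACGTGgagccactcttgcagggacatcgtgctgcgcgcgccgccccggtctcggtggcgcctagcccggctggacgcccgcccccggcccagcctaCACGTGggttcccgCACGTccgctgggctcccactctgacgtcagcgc
Car9: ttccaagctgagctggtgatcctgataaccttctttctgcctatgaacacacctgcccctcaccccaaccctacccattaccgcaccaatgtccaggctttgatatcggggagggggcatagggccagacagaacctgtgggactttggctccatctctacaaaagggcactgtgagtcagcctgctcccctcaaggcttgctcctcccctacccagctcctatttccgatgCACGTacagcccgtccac
P4ha2: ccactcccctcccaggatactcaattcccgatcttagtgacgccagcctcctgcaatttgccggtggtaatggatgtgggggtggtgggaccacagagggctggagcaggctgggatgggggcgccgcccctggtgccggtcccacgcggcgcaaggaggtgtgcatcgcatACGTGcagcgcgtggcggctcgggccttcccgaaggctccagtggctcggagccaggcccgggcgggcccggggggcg

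ACGTG was found on either strand in the 250 bases upstream of a start for 18 of the 31 members with a RefSeq promoter (all but Ndrg1), which is 58.1%, against 18.5% of 27025 genes. It stood in 10 of 20 glycolysis members and 8 of 11 others. Genes with several starts have several windows. Counted by window, 21 of 47 member promoters (44.7%) and 16.6% of all 32851 promoters held it. Ldha carried 5 matches in the window shown, 4 of them from the 2 strands of each of 2 CACGTG sites, a palindrome that holds ACGTG on both strands and that 4 of 31 members had against 6.86% of genes. The other variant of the core, GCGTG, stood in 21 of 31 members (67.7%) and 30.9% of genes. Since the list was made of glycolysis genes and known HIF targets, these shares describe the list, and a match is not evidence of binding. Members with ACGTG had a median log2 ratio of -0.08 for Miglustat, 0.05 for D-PDMP and -0.03 for D-PPMP, beside -0.10, -0.05 and -0.05 for the 13 without it. Split by GCGTG, the medians were -0.08, -0.01 and -0.08 with it, beside -0.10, 0.10 and 0.10 for the 10 without it. The 2 variants thus gave opposite orders with D-PDMP and with D-PPMP, and neither split was tested.

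On these arrays the glycolysis and HIF target genes stayed near Control with each inhibitor, and 93 of the 96 member ratios were within 1.5-fold. So did most genes. Only 2.68% (Miglustat), 2.54% (D-PDMP) and 3.44% (D-PPMP) of all genes measured lay 1.5-fold or more away. Closeness to Control was thus not particular to the members. With Miglustat most glycolytic enzymes read slightly lower, by up to 0.26 on the log2 scale. With D-PDMP and D-PPMP the core enzymes lay close to Control, the glucose transporter Slc2a1 and hexokinase Hk2 read somewhat higher, and the stress-response gene Ndrg1 lower.

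With Miglustat, 0 members lay 2-fold or more from Control (0.388% of all genes measured on both arrays) and 1 lay 1.5-fold or more away (2.68%). With D-PDMP the counts were 1 at 2-fold (0.325%) and 2 at 1.5-fold (2.54%); without the probes of a strip of noisy background described below with Car9 they were 0 and 1. With D-PPMP, 0 members reached 2-fold (0.507%) or 1.5-fold (3.44%). The median log2 ratio of the 20 glycolysis members was -0.10 for Miglustat, 0.00 for D-PDMP and -0.02 for D-PPMP, and that of the 12 others was -0.03, 0.01 and -0.09. Over all genes measured the medians were -0.02, 0.00 and -0.01. The interquartile range of the member ratios was 0.18, 0.17 and 0.20, against 0.19, 0.19 and 0.20 for all genes.

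**Figure D1:**
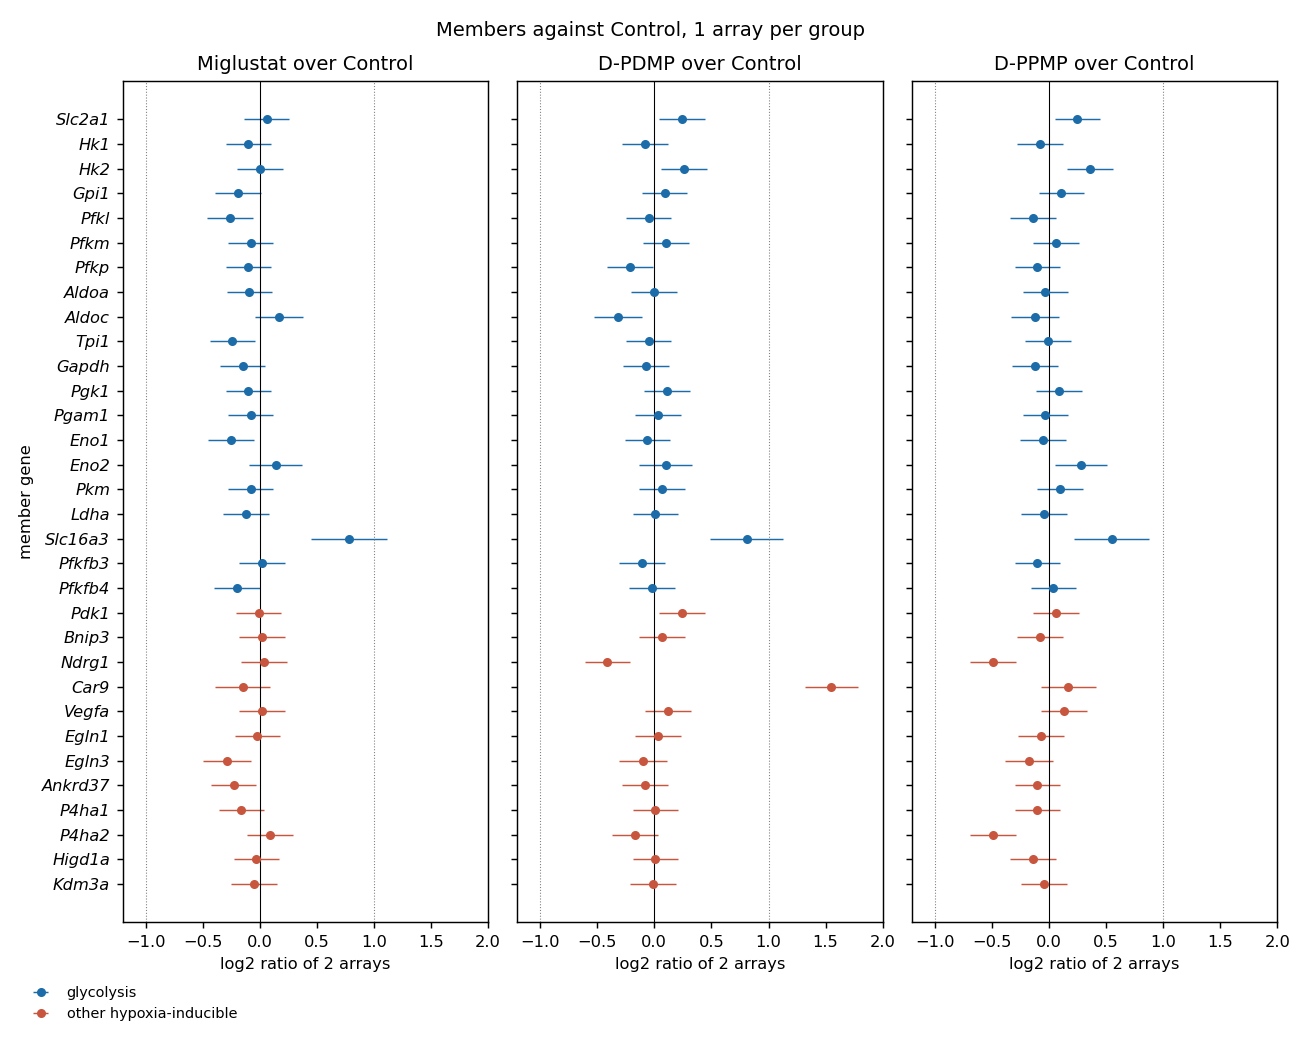
Log2 ratio over Control (x axis) of each of the 32 members (rows) with each inhibitor, 1 array a group; bars are the scanner software's error of the ratio, within arrays only. Most points lie within 0.3 of 0, apart from Slc16a3 in each panel, Car9 at 1.55 with D-PDMP and a few values between -0.5 and 0.4 such as Ndrg1, P4ha2 and Hk2.

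The direction of the small differences was uneven with Miglustat and, in the scaling used here, with D-PPMP. With Miglustat 22 of 32 members lay below Control, where 55.5% of all genes did. These were 14 of the 20 of glycolysis and 8 of the 12 others. With D-PPMP 20 of 32 lay below (51.7% of all genes), 11 of the 20 of glycolysis and 9 of the 12 others. The D-PPMP counts depended on the scaling. Under quantile normalization they were 8 of glycolysis and 9 others, with 54.7% of all genes below. Under cyclic loess they were 7 and 10, with 54.8% of all genes below. With D-PDMP 14 of 32 lay below (50.4%). Under each way of scaling the arrays, 14 of the 20 glycolysis members were below Control with Miglustat, and 12 of the 19 still measured were when the mean of a gene's probes or its second probe was taken. The Miglustat array gave the lowest of the 4 values for 19 members, 13 of glycolysis and 6 others, against 33.8% of 14003 genes well above background on every array, and the highest for 4 (24.9%). The D-PPMP array was lowest for 5 members, 0 of 20 in glycolysis and 5 of 12 others (27.6%), and highest for 7 (24.8%). The D-PDMP array was lowest for 3 (17.5%) and highest for 12 (23.8%), and the Control array lowest for 5 (21.1%) and highest for 9 (26.4%). Few of these differences passed the software error of the ratio. With Miglustat 5 members lay below by more than it (9.56% of all genes) and 1 above (9.97%). The counts were 3 below (9.29%) and 5 above (9.03%) with D-PDMP, and 2 below (10.5%) and 4 above (12.1%) with D-PPMP.

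The Miglustat pattern was seen in enzymes of the middle and lower pathway. Gpi1, which turns glucose 6-phosphate into fructose 6-phosphate, had a level of 6.11 on the Control array and 5.92 on the Miglustat array, beside 6.20 with D-PDMP and 6.22 with D-PPMP. For triosephosphate isomerase, Tpi1, the levels were 5.94, 5.70, 5.90 and 5.93 in the same order. In both, the Miglustat array was the lowest and the other 3 arrays lay within 0.11 of Control. Enolase 1, Eno1, which forms phosphoenolpyruvate, read 7.01, 6.76, 6.95 and 6.96. Gapdh, the enzyme that reduces NAD+ in glycolysis and a common reference gene, read 8.19, 8.03, 8.12 and 8.06. The Miglustat ratios were -0.19 for Gpi1, -0.24 for Tpi1, -0.25 for Eno1 and -0.15 for Gapdh, and those of Tpi1 and Eno1 were larger than the software error.

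Smaller differences of the same sign were seen in the remaining abundant enzymes. Aldolase A (Aldoa) had a Miglustat ratio of -0.09, phosphoglycerate kinase Pgk1 -0.10, phosphoglycerate mutase Pgam1 -0.08, pyruvate kinase Pkm -0.08 and lactate dehydrogenase A (Ldha) -0.12. None of these passed the software error of 0.204. Their D-PDMP ratios ran from 0.00 for Aldoa to 0.11 for Pgk1, and their D-PPMP ratios from -0.04 for Ldha to 0.10 for Pkm. Pgam1, whose probe was printed as 10 spots, had 7 of 10 Miglustat spots below every Control spot after scaling. Before scaling, its lowest Miglustat spot (signal 23689) was above its lowest Control spot (23559). The spots are repeated measurements of 1 RNA sample. Over the ways of scaling, the Miglustat ratio ran from -0.08 to -0.01 for Pgam1 and from -0.10 to -0.01 for Pkm. It ran from -0.11 to -0.03 for Aldoa, from -0.12 to -0.05 for Pgk1 and from -0.12 to -0.04 for Ldha.

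Genes with bright probes as a class also read lower with Miglustat. Among the 1176 genes whose probe had a mean level of 5 or more, 67.3% were below Control, with a median ratio of -0.04. The 9 glycolysis members in this band were below in 9 of 9 cases, with a median of -0.12. With D-PPMP 67.1% of the band was below and 6 of the 9 members were, with medians of -0.04 and -0.03, and with D-PDMP 54% of the band and 3 of the 9 members. Genes with a mean level under -3 had medians of 0.04 for Miglustat, 0.00 for D-PDMP and 0.12 for D-PPMP. The part that signal level plays in the members' values was not tested. The summed signal of the chondrocyte markers was 12415 in Control and 16875 with Miglustat, against 10720 for D-PDMP and 10142 for D-PPMP. Col2a1 made up nearly all of it, at 12054 in Control and 16502 with Miglustat, while Sox9, the other marker well above background, had a Miglustat ratio of -0.03. The osteoblast markers summed to 264365 in Control, 252474 with Miglustat, and 239563 and 230776 on the D-PDMP and D-PPMP arrays. The part of these markers in the members' values was not tested.

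**Figure D2:**
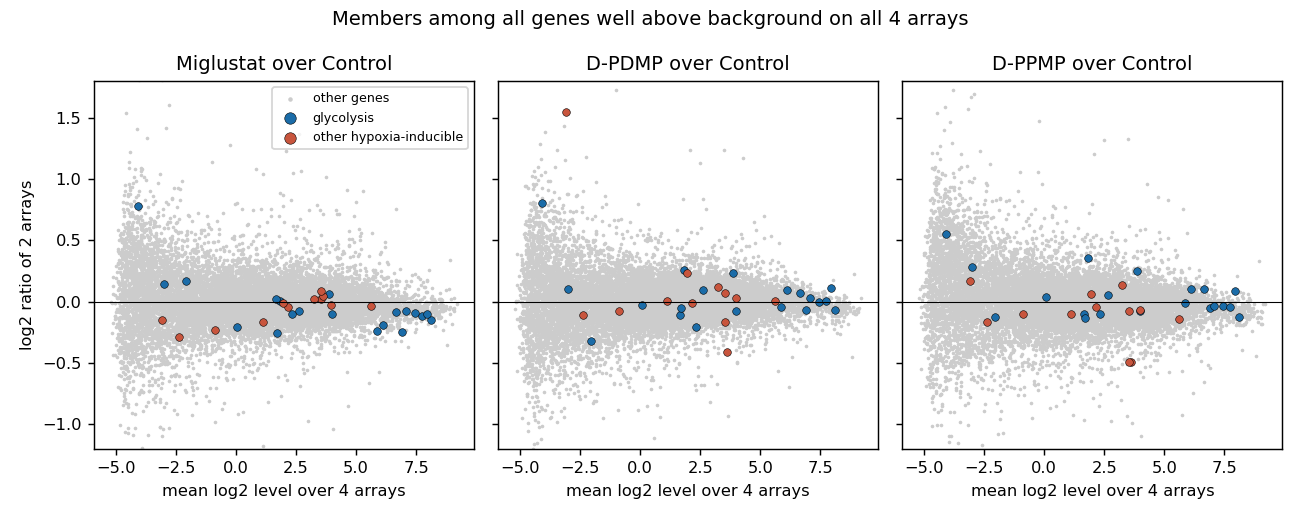
Log2 ratio over Control (y axis) against the mean level of a gene's brightest probe over the 4 arrays (x axis), with members marked over all genes and 1 panel an inhibitor. The bright glycolysis members at the right of the Miglustat panel lie below 0, with a median of -0.12 beside -0.04 for all genes in that band.

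Separate probes of a gene gave the Miglustat sign repeatedly. In 15 members with several probes well above background on every array, all probes lay below Control in 11 with Miglustat, against 35.8% of 5271 such genes. All lay above in 2 (26.3%). With D-PDMP all probes were below in 4 (29.3%) and above in 3 (30.5%), and with D-PPMP in 4 (31.2%) and 2 (26.4%). The 6 Gapdh probes had Miglustat ratios from -0.31 to -0.15, the 3 of Tpi1 from -0.24 to -0.22, the 3 of Gpi1 from -0.30 to -0.19, and those of Eno1 were -0.25 and -0.35. Probes of a gene share the RNA sample and the array.

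**Figure D3:**
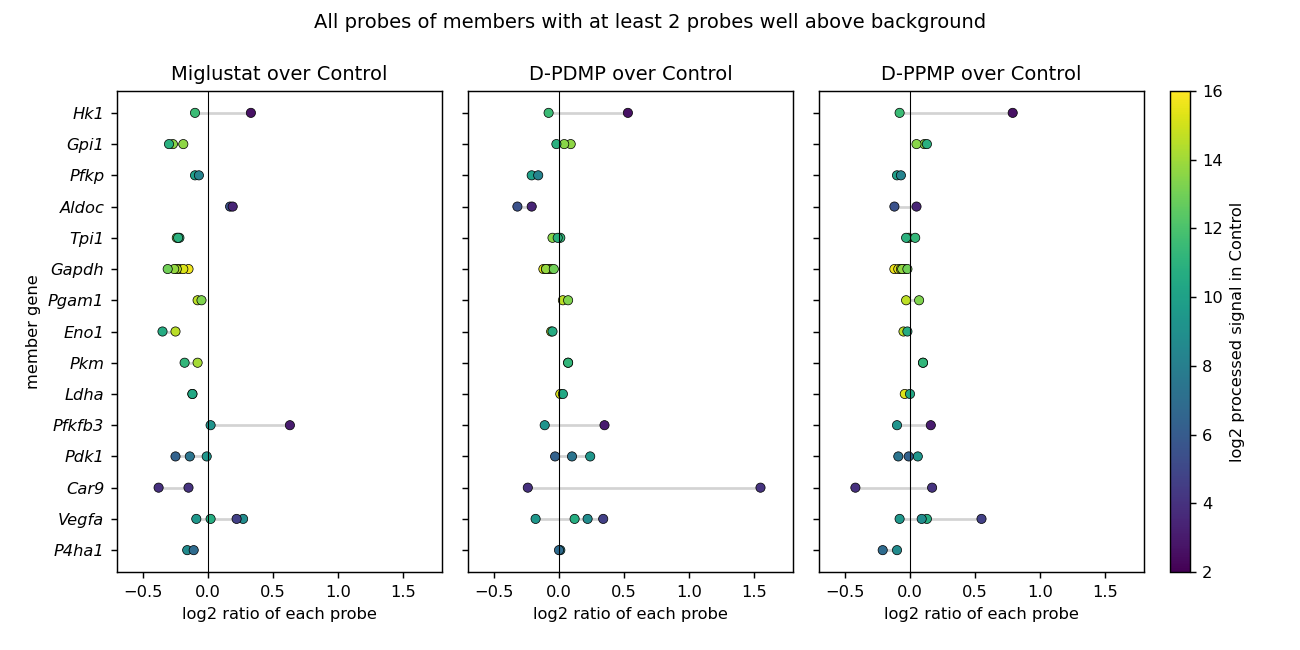
Log2 ratio over Control (x axis) for each probe well above background of the members with several such probes (rows), 1 panel an inhibitor, with colour for the log2 signal in Control. The probes of Gapdh, Tpi1, Gpi1 and Eno1 sit together below 0 with Miglustat, while those of Hk1, Pfkfb3, Vegfa and Car9 are spread out.

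Glucose entry showed the opposite side with D-PDMP and D-PPMP. The level of Slc2a1, the main glucose transporter of osteoblasts, was 3.74 for Control and 3.80 for Miglustat, beside 3.97 for D-PDMP and 3.99 for D-PPMP. Hexokinase 2 (Hk2), the inducible enzyme that traps glucose as glucose 6-phosphate, had levels of 1.66, 1.67, 1.92 and 2.02. For both genes the Control and Miglustat arrays lay together and the other 2 arrays higher. Slc2a1 and Hk2 each had only 1 probe, printed as 1 spot, so no other probe checks these values. The log2 ratios of Slc2a1 were 0.24 with D-PDMP and 0.25 with D-PPMP, and those of Hk2 were 0.26 and 0.36, the latter a 1.28-fold higher signal. The brightest probe of Hk1, the constitutive hexokinase, had ratios of -0.10, -0.08 and -0.08, whereas its dim probe had signals of 6.1, 8.03, 9.16 and 10.9 and ratios of 0.33, 0.53 and 0.79, so the probes of Hk1 disagree.

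Among the steps that control flux, 1 phosphofructokinase gene lay below Control with Miglustat by more than the software error. The liver-type phosphofructokinase Pfkl read 1.83 in Control and 1.57 with Miglustat, beside 1.78 on the D-PDMP array and 1.69 on the D-PPMP array, and its Miglustat ratio of -0.26 was the lowest of the 20 glycolysis members on that array. The muscle type, Pfkm, had ratios of -0.08, 0.10 and 0.06, and the platelet type, Pfkp, of -0.10, -0.21 and -0.10. Pfkfb3 and Pfkfb4 make fructose 2,6-bisphosphate, the activator of phosphofructokinase. Pfkfb3 had ratios of 0.02, -0.11 and -0.10 by its brightest probe and 0.63, 0.35 and 0.16 by a dim one, and Pfkfb4 of -0.20, -0.02 and 0.04.

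The neuronal isozymes and the lactate exporter had dim probes. Aldolase C (Aldoc) had levels of -2.00 in Control and -1.83 with Miglustat, then -2.32 with D-PDMP and -2.12 with D-PPMP, each the mean of 10 spots. Its D-PDMP ratio was -0.32 ± 0.0496 (SE over 10 spots of 1 array each), with 9 of 10 spots below every Control spot, and its Miglustat ratio was 0.17 ± 0.0304. Enolase 2 (Eno2) read -3.15, -3.01, -3.05 and -2.87, lowest in Control and highest with D-PPMP. Slc16a3, which carries lactate out of the cell, had processed signals of only 7.41 in Control, compared with 13.3 for Miglustat, 13.4 for D-PDMP and 11.2 for D-PPMP. Its log2 ratios of 0.78, 0.81 and 0.55, with software errors of 0.33, 0.32 and 0.33, were the highest of the glycolysis list. They were 0.09, 0.09 and 0.08 when the background was corrected by the normexp model with an offset of 50, which draws dim probes together by its construction.

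**Figure D4:**
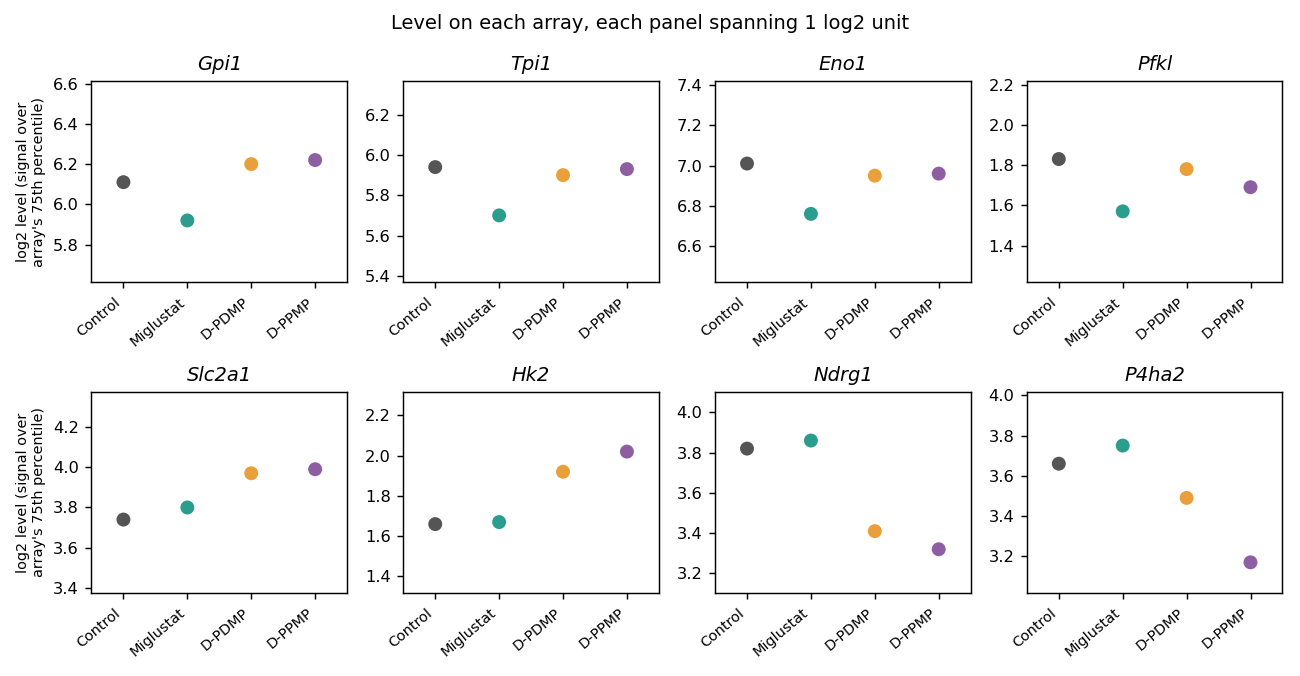
Log2 level (y axis) on each of the 4 arrays (x axis) for 8 selected members, 1 point an array, each panel spanning 1 log2 unit; the software's error of a ratio is 0.204. Tpi1 and Eno1 are lowest on the Miglustat array, Slc2a1 and Hk2 highest on the D-PDMP and D-PPMP arrays, and Ndrg1 lowest on those 2 arrays.

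Among the HIF targets outside glycolysis, the oxygen sensor Egln1 was near Control and Egln3 read below it with each inhibitor. Egln1, the chief prolyl hydroxylase acting on HIF-1α, had levels of 3.99, 3.96, 4.02 and 3.92 on the 4 arrays in the order above, all within 0.10 of each other. Egln3, a prolyl hydroxylase strongly induced by hypoxia, read -2.25, -2.54, -2.36 and -2.42, highest in Control. Its ratio of -0.29 with Miglustat was the lowest of all 32 members on that array. Ankrd37, an ankyrin-repeat gene induced by HIF, read -0.79, -1.02, -0.87 and -0.90, again highest in Control. Kdm3a, a histone demethylase under HIF control, had ratios of -0.05, -0.01 and -0.04.

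Ndrg1, a gene induced by hypoxia and other cell stress, read 3.82 in Control and 3.86 with Miglustat, and 3.41 and 3.32 with D-PDMP and D-PPMP. The D-PDMP and D-PPMP arrays lay below the other 2. Its signal was 1.33-fold lower with D-PDMP (log2 ratio -0.41) and 1.41-fold lower with D-PPMP (log2 ratio -0.49), beyond the software error in both. P4ha2, a subunit of the enzyme that hydroxylates proline in collagen, had levels of 3.66, 3.75, 3.49 and 3.17, lowest with D-PPMP, where it was 1.41-fold lower (log2 ratio -0.49). Both Ndrg1 and P4ha2 had only 1 probe, printed as 1 spot. The related P4ha1 read 1.17, 1.00, 1.18 and 1.06, a spread of less than the software error.

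Of the mitochondrial members, Bnip3 and Higd1a differed little between arrays, and Pdk1 read higher with D-PDMP by its brightest probe. Pdk1, the kinase that keeps pyruvate out of the citric acid cycle, had levels of 1.87, 1.86, 2.10 and 1.93, highest with D-PDMP. Its D-PDMP ratio was 0.24 by the brightest probe and 0.10 and -0.03 by the other probes well above background on every array. Bnip3, which marks mitochondria for removal, had ratios of 0.02, 0.07 and -0.08, and Higd1a, a protein of the inner mitochondrial membrane, of -0.03, 0.01 and -0.14. Vegfa, the vessel growth factor, read 3.17, 3.19, 3.29 and 3.30 by its brightest probe. Its 4 probes ranged from -0.18 to 0.34 with D-PDMP and from -0.08 to 0.55 with D-PPMP, so its probes gave no common direction.

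Car9, a cell-surface carbonic anhydrase that handles acid and a classical hypoxia marker, was the member farthest from Control. Its brighter probe had processed signals of 16.3 in Control and 15.4 with Miglustat, then 49.3 on the D-PDMP array and 18.9 on the D-PPMP array, and a D-PDMP log2 ratio of 1.55 (software error 0.23). Its second probe had signals of 15.2, 12.2, 13.4 and 11.7 and a D-PDMP ratio of -0.24. The probes thus lay on opposite sides of Control on the D-PDMP array. The SD of the background pixels around the brighter spot was 2.61, 3.15, 10.6 and 2.76 on the arrays in that order.

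The brighter Car9 spot lies in a narrow vertical strip of the D-PDMP array, columns 124 to 127 and rows 223 to 263, chosen after the values were seen. There the median background SD was 9.43 on that array and 3.27 to 3.4 on the others. Of 79 spots in the strip that were not well above background in Control, 51 (64.6%) were with D-PDMP, 9 (11.4%) with Miglustat and 7 (8.86%) with D-PPMP, and in the columns beside it the D-PDMP share was 13.9%. Of the 85 member spots, 1 lies in the strip. The glucose transporter Slc2a3, no member of the list, has a spot there with signals of 1.02, 0.978, 23.5 and 0.983, well above background with D-PDMP alone, while its other probe was not well above background on any array. Without the strip's probes the D-PDMP ratio of Car9 is that of its second probe, -0.24.

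**Figure D5:**
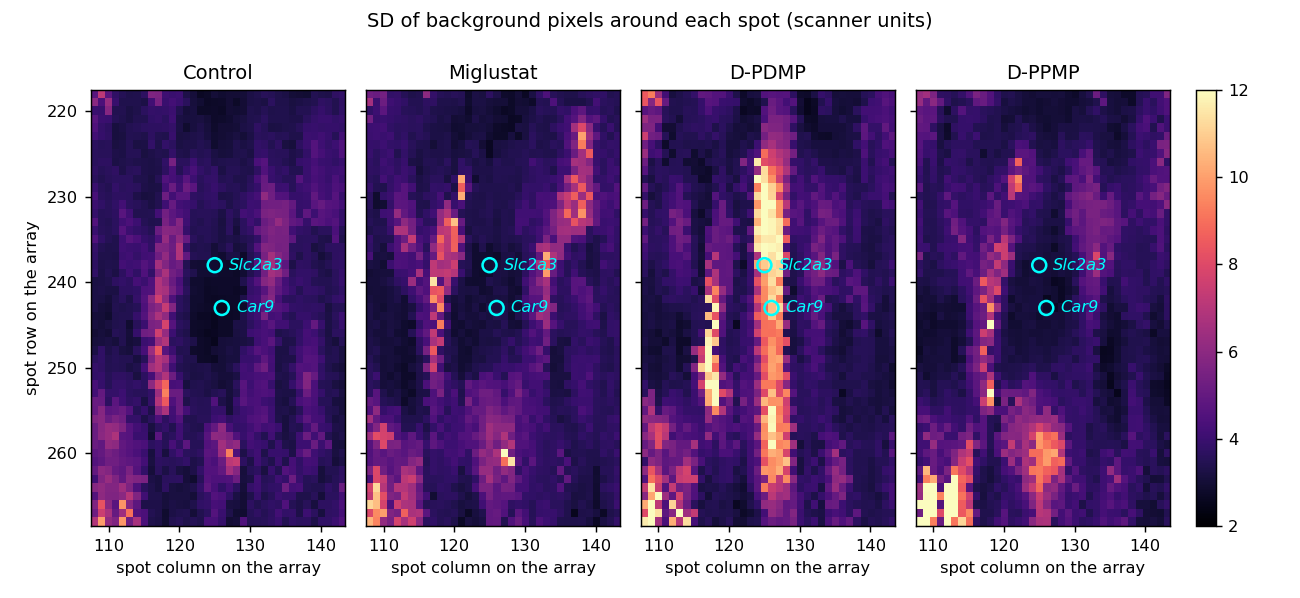
Map of the array around the Car9 and Slc2a3 spots, with spot column (x axis) and spot row (y axis) and colour for the SD of background pixels in scanner units, 1 panel an array. A vertical strip of high values, median 9.43 in the area used, runs through both spots on the D-PDMP array and is not seen at these spots on the other 3.

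D-PDMP and D-PPMP are both ceramide-like compounds with a morpholine ring and differ in the fatty acyl chain, which is shorter in D-PDMP, whereas Miglustat is an iminosugar. Doses were 50 µM for Miglustat, 10 µM for D-PDMP and 1.0 µM for D-PPMP, so no matched comparison of structures can be made. Side by side in that order, the log2 ratios were 0.06, 0.24 and 0.25 for Slc2a1, 0.00, 0.26 and 0.36 for Hk2, 0.04, -0.41 and -0.49 for Ndrg1, and -0.24, -0.05 and -0.01 for Tpi1. All 3 share the same Control array.

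The rest of the pathway was read from 4 further lists. Of 38 other genes of glucose metabolism, 27 were well above background on the arrays compared, with medians of 0.03 (Miglustat), 0.02 (D-PDMP) and 0.03 (D-PPMP). At least 1.5-fold higher was 1 of 27 with each inhibitor, Pgam2, the muscle phosphoglycerate mutase, with signals of 10.5 in Control and 18.2 to 21.5 on the others and ratios of 0.86, 0.73 and 0.98. Slc16a1, the other main lactate carrier, had ratios of -0.17, 0.21 and 0.17. The 18 measured genes of 20 for glycogen and the pentose phosphate route had medians of -0.07, 0.00 and -0.01, and none reached 1.5-fold. Pgd, an NADPH-producing enzyme of that route, was at -0.29, -0.04 and 0.01, and Ppp1r3b, a glycogen-targeting phosphatase subunit, at -0.11, -0.20 and -0.41.

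HIF itself was near Control at the mRNA level. Hif1a had ratios of 0.04, 0.03 and -0.11, and Epas1, which encodes HIF-2α, was not well above background on any array. Of the 21 genes for HIF and its regulators 19 were measured, with medians of 0.04, 0.05 and -0.02. Arnt2, a relative of Arnt, at 0.66 with D-PDMP was the 1 gene past 1.5-fold there. Of 40 other hypoxia-inducible genes 36 were measured, with medians of -0.06, -0.01 and -0.08. At least 1.5-fold from Control were 3 genes for Miglustat, 1 for D-PDMP and 3 for D-PPMP, where 2.68%, 2.54% and 3.44% of all genes were. With Miglustat they included Adm, a vasodilator peptide, at 0.76 and the clock repressor Bhlhe41 at -1.08, the latter with a signal of only 14.8 in Control. Bhlhe41 was also the gene past that limit with D-PDMP, at -0.85, and it was at -0.75 with D-PPMP, where Bhlhe40 was at 0.77 and Vldlr, a lipoprotein receptor, at -0.65. Both directions were therefore present among these genes with Miglustat and with D-PPMP.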

How the data were processed

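The 4 arrays (59305 non-control spots for 56605 probes) were read with Agilent Feature Extraction 12.1.1.1. Per the file headers, the deposited processed signal is a spot intensity after background and spatial correction, on 1 array at a time, with no scaling between arrays. The labels' protocols give total RNA labelled with Cy3. The authors' deposited series table holds log2 values. At least 56602 of 56605 probes on each array lay within 0.02 of log2 of the processed signal, floored at 1, minus the array's 75th percentile, so scale, centring and direction are settled. Its column medians were -4.10, -4.00, -4.00 and -3.89.

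Control spots were left out, and so were outlier-marked spots unless all spots of a probe were marked. Log2 signals were averaged per probe and the 75th percentile (signals of 183, 191, 189 and 189) subtracted. By RefSeq accession, 32994 probes (58.3%) were named through a table of assembly GRCm38.p6; the rest stayed unnamed. The array design names another build, so no probe coordinates are given. A gene takes its brightest probe over the 4 arrays. All genes measured means those well above background on both arrays compared, 14171 for Miglustat, 14154 for D-PDMP and 14200 for D-PPMP. Promoters are RefSeq's.

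The members and lists were chosen with earlier results of these data known. Named were all members, a fixed set of companion genes and, in each companion list, genes past 1.5-fold or otherwise the 2 farthest from Control, of which the text names some; certain genes are not reported here. Alternatives were normexp, quantile and cyclic loess normalization (limma 3.58.1 in R 4.3.3), another 75th percentile, the authors' values, filters, and other probes. The calculations (Python 3.11.15) were tested on simulated data. The 4 arrays share 1 slide, so position on it and group cannot be told apart. The number of arrays limits the precision.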

Additional observations from a re-analysis of the deposited data

How the results depend on the processing

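No paired analysis was possible because each group has 1 array, and leaving out an array leaves no comparison. The median ratio of the glycolysis members ran from -0.11 to -0.05 with Miglustat, from -0.01 to 0.07 with D-PDMP and from -0.02 to 0.06 with D-PPMP over all settings run, and that of the others from -0.07 to 0.01, -0.04 to 0.01 and -0.12 to -0.08. Values farther from those reported came with the mean of a gene's probes (glycolysis with D-PPMP 0.03) and with the second brightest probe (glycolysis 0.07 with D-PDMP and 0.06 with D-PPMP, others -0.04 with D-PDMP). Members at 2-fold with D-PDMP were 0 under normexp, the mean of probes, the second probe and without the strip's probes. Members at 1.5-fold were 0 with Miglustat and 0 with D-PDMP under normexp, 1 with D-PDMP without the strip, and 2, 1 and 1 with Miglustat, D-PDMP and D-PPMP under the second probe. Car9 reversed with D-PDMP to -0.24 under the second probe and without the strip. Apart from the choice of probe and spots, the cause was not tested. Over the 6 ways of scaling, 19 members stayed below Control with Miglustat, 9 above and 4 changed side; with D-PDMP these counts were 12, 14 and 6, and with D-PPMP 16, 11 and 5. The normexp correction planned on the mean spot signal was not run; the median spot signal took its place, and this and the strip were chosen after seeing the data. Signals near background limit Slc16a3, Car9, Eno2 and the dim probes of Hk1 and Pfkfb3.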
